A study of Mus musculus with 7 samples.

Results

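Claudins are membrane proteins of the tight junction, and the 8 claudin genes Cldn1, Cldn3, Cldn4, Cldn7, Cldn8, Cldn10, Cldn12 and Cldn14 were followed through the accessible chromatin of Dll1+ and Dll1- mouse mammary tumor cells. Accessible regions were taken from a Dll1+ and a Dll1- list made by the assay for transposase-accessible chromatin (ATAC-seq), in which a transposase cuts DNA that is not covered by nucleosomes. A region belonged to a claudin gene when the start site of that gene was the nearest of all protein-coding start sites to the middle of the region. By this rule 78 of 119215 regions belonged to the 8 genes. By their middle, they lay in intergenic sequence (38), introns (28), promoters (9), a 5′ UTR (1), a coding exon (1) and a non-coding exon (1). Of the 9 in promoters, 3 lay at the start of a small nucleolar RNA gene, a ribosomal RNA gene or an antisense gene and not at a claudin start. Claudin promoter regions are defined below by overlap with the promoter, and those of Cldn1 and Cldn12 are here the 5′ UTR and an intron.

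In a tight junction, claudin strands of neighbouring epithelial cells meet and close the space between the cells. Some claudins, among them Cldn1, Cldn3, Cldn4, Cldn8 and Cldn14, mainly seal this path, and others, such as Cldn10, form channels that let selected ions pass. Mammary epithelium closes its tight junctions at the onset of milk secretion. Low expression of the CLDN3, CLDN4 and CLDN7 genes gives the claudin-low type of human breast tumors its name.

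The cells came from spontaneous tumors of MMTV-PyMT mice, in which the mouse mammary tumor virus promoter drives the polyoma middle T oncoprotein. The mice also carried an mCherry reporter of the expression of Dll1, the gene of a Notch ligand, on a bacterial artificial chromosome. Tumors were digested with collagenase and hyaluronidase, cells with CD45, CD31 or Ter119 on their surface were removed, and mCherry+ (Dll1+) and mCherry- (Dll1-) cells were sorted. Both groups therefore carried the transgene and the reporter and came from the same tumor model, and the age of the mice is not given in the sources used here. The Dll1+ list pooled 3 samples and the Dll1- list 4 samples from 4 tumors, of which 3 gave both. The comparison asked whether accessibility at the claudin genes differed between Dll1+ and Dll1- tumor cells.

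Each list was 1 pooled measurement, so no difference could be set against the spread between tumors and no p-value was computed. The strength of a region was the fold enrichment of its strongest summit over the local background, and it was compared as a percentile among all rows of its own list, where 50 is the middle of the list. Sequencing was deeper in the Dll1- list, where the background over the whole genome was 7.20 reads, against 3.74 reads in the other. A region absent from the Dll1+ list was a region not called there, and closed chromatin was not shown by its absence. Counting intervals (95%, exact Poisson) were computed from the reads at the summit and cover counting error only. Without molecular identifiers 1 molecule can give several reads, so the intervals may be too narrow even for that. The promoters of 4 epithelial markers (Epcam, Cdh1, Krt8 and Krt18) and 4 luminal markers (Gata3, Foxa1, Elf5 and Esr1) were present in both lists. Their median difference in percentile (Dll1+ minus Dll1-) was -6.52 for the epithelial and -10.2 for the luminal markers, against -1.66 over the 13149 protein-coding genes with a promoter region in both lists. Of 4 basal markers only Acta2 had a promoter region, at percentile 50.04 in Dll1+ and 44.9 in Dll1-, a difference of 5.19 points the other way. In the Dll1- list only, a promoter region was present at the macrophage receptor gene Csf1r (percentile 76.0) and the collagen gene Col1a2 (percentile 51.6), while Ptprc, Cd3e, Pecam1, Cdh5, Col1a1, Dcn, Hbb-bt and Gata1 had none in either list. Promoter regions at Kdr and Pdgfra were present in both, with differences of -9.23 and -11.3 points. The part of such cells in the claudin values was not tested.

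The sequences just upstream of 4 claudin starts show how unlike these promoters are, although the first 3 were accessible in both lists. They are the 250 bases before the start site, from RefSeq on GRCm38, read 5′ to 3′ on the transcribed strand. Capitals mark the AP-1 sequence (TGACTCA or TGAGTCA), the E-box CACCTG and the GC box GGGCGG, each searched on both strands. TATAAA and the Grainyhead-like sequence AACCNGTT were also searched and were in none of the 4. The RefSeq table held promoters of 7 of the 8 genes, and that of Cldn8 is not shown.
Cldn4 (chr5:134946935-134947184, minus strand): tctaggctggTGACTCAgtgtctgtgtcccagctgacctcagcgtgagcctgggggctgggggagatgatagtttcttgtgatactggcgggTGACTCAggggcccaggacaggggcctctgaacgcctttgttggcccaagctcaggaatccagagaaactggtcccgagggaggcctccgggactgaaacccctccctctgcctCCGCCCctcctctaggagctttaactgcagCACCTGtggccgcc
Cldn3 (chr5:134985964-134986213, plus strand): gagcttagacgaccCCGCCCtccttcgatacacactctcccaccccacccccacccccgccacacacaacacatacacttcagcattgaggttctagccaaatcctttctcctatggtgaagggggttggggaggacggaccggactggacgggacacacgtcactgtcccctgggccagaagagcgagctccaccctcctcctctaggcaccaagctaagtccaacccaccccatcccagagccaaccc
Cldn1 (chr16:26371840-26372089, minus strand): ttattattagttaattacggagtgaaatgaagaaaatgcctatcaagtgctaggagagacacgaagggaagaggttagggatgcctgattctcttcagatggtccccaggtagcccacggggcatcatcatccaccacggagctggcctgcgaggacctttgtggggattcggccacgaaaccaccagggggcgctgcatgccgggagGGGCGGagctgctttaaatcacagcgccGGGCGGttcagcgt
Cldn14, far start (chr16:94008838-94009087, minus strand): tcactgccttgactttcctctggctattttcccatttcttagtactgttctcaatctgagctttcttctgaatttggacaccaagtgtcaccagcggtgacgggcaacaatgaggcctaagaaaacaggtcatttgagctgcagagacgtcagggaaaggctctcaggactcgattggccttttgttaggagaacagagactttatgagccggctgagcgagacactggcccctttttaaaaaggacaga

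The Cldn4 sequence held 2 AP-1 matches, 1 E-box and 1 GC box. Among 32851 promoters of the same length, 4.46% held an AP-1 match, 17.2% the E-box and 32.7% the GC box. Cldn3 held 1 GC box and Cldn1 held 2, and the far Cldn14 start held none of these sequences. GC content was 62% at Cldn4, 60.8% at Cldn3, 55.6% at Cldn1 and 47.6% at the far Cldn14 start. AP-1 is the Fos and Jun dimer, E-boxes of this form are bound by repressors of the Snail and Zeb families that silence epithelial genes, and the GC box is bound by Sp factors.

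Away from the promoters, 6 windows of 201 bases around the strongest summit are shown, because the comparisons below turn on them. They are from GRCm38 and are read on the plus strand. Capitals mark AP-1, the E-box, and matches to sequences of TEAD (GGAATG), FOX (TGTTTAC or TATTTAC) and Grainyhead-like factors. The first 2 windows belong to regions of the Dll1- list only. The next 2 lie between Cldn4 and Cldn3 and differed in opposite directions, and the last 2 lie in Cldn10.
Cldn14, intron, Dll1- only (chr16:93927667-93927867): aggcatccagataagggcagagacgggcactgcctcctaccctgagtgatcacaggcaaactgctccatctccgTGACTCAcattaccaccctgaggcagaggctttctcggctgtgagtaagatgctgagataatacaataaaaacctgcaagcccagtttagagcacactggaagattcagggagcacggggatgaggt
Cldn1, intron, Dll1- only (chr16:26369455-26369655): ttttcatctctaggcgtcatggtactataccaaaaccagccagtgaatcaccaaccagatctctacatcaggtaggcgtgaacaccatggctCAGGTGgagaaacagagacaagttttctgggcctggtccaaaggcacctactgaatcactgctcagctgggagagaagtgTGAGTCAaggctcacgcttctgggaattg
Cldn3, upstream, higher in Dll1- (chr5:134967292-134967492): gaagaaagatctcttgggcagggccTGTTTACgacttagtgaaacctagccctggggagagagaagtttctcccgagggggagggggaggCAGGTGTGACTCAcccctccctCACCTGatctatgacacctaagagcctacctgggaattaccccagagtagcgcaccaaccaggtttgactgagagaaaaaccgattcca
Cldn3, upstream, higher in Dll1+ (chr5:134970698-134970898): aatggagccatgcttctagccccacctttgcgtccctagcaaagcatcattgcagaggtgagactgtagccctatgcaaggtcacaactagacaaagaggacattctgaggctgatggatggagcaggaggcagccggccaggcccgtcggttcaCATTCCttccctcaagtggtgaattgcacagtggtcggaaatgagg
Cldn10, intron, strongest claudin region (chr14:118836227-118836427): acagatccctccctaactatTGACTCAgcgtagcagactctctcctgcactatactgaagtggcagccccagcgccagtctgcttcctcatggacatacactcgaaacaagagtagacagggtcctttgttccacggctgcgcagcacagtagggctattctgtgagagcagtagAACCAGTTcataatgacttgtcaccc
Cldn10, intron, higher in Dll1+ (chr14:118843778-118843978): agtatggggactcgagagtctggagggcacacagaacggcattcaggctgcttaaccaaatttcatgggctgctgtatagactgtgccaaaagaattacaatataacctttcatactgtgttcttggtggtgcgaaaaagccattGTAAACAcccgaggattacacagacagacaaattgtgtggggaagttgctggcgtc

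Most claudin regions were open in both populations. Of the 78 regions, 52 were shared between the lists (66.7%, Wilson 95% interval 55.6 to 76.1%), against 66.4% of all regions. The Dll1+ list alone held 6 (7.69%, interval 3.57 to 15.8%), against 9.01% of all regions, and the Dll1- list alone held 20 (25.6%, interval 17.3 to 36.3%), against 24.6% of all regions. Claudin genes as a group were thus divided between the lists like the rest of the genome. Of the 26 regions found in 1 list, 76.9% were from the deeper Dll1- list, against 73.2% over all regions.

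Gene by gene, the shared part ran from 50% of the regions at Cldn14 to 100% at Cldn12, and the interval of each gene held the 66.4% of all regions. All 3 Cldn12 regions were shared. At Cldn3, Cldn4 and Cldn7, the genes of the claudin-low type, 17 of 20 regions were shared (85%, interval 64.0 to 94.8%), and the other 3 were in the Dll1- list. Cldn1 had 9 shared regions of 14, with 2 Dll1+ only and 3 Dll1- only. Cldn8 had 5 shared regions and 1 in each list only. Cldn10 had the most regions (20), of which 11 were shared, 3 were Dll1+ only and 6 Dll1- only. Cldn14 had 7 of 14 regions shared, 7 in the Dll1- list only (50%, interval 26.8 to 73.2%, against 24.6% of all regions) and 0 in the Dll1+ list only.

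**Figure D1:**
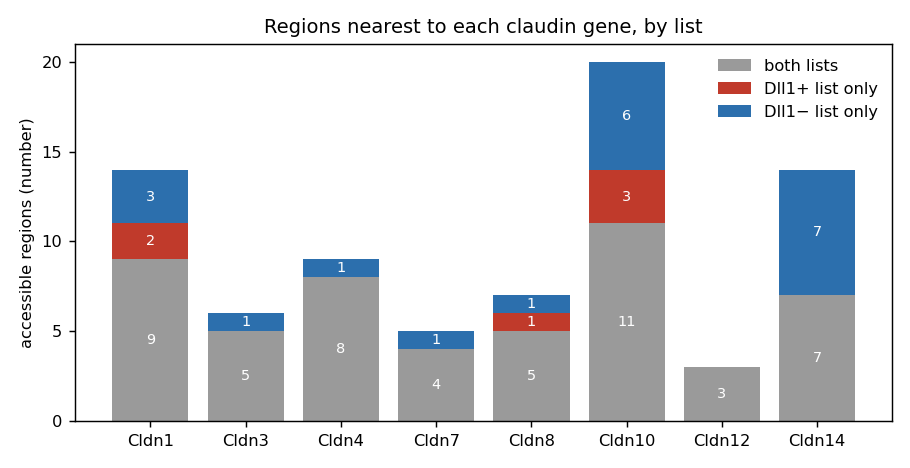
Number of accessible regions nearest to each of the 8 claudin genes (vertical axis, regions), split into regions in both lists (grey), the Dll1+ list only (red) and the Dll1- list only (blue). Red segments are present at Cldn1, Cldn8 and Cldn10, and Cldn14 has 7 regions in both lists and 7 in the Dll1- list only.

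Regions of 1 list were weak. The 6 Dll1+ only claudin regions had a median percentile of 16.9 (range 10.7 to 43.0), and 0 of them lay in the stronger part of the list, at or above percentile 50, against 15.4% of all Dll1+ only regions. The 20 Dll1- only claudin regions had a median of 32.6 (range 4.66 to 94.6), and 4 (20%) lay in the stronger part, against 22.3% of all Dll1- only regions. These 4 were the intronic Cldn14 and Cldn1 regions shown above and a further 2 at Cldn14. Shared claudin regions had a median percentile of 62.6 in Dll1+ and 62.3 in Dll1-, against 67.3 and 70.7 over all shared regions.

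Promoter chromatin of the claudin genes was mostly common to both populations. For 7 of the 8 genes a region over a start site, from 1000 bp upstream to 100 bp downstream, was present in both lists. Over all 21924 protein-coding genes 60% had such a region in both lists, and of the 13925 with a region in either list the share was 94.4%. The exception among the claudin genes was Cldn14, whose only promoter region was in the Dll1- list. For 6 of the 7 shared promoters the percentiles of the lists differed by at most 7.11 points.

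The sealing claudins Cldn4, Cldn3 and Cldn7 had promoters of like rank in both lists. At Cldn4 (chr5:134946520-134947327) the percentile was 72.9 in the Dll1+ list (interval 65.9 to 78.9) and 80.0 in the Dll1- list (76.3 to 83.3). At Cldn3 (chr5:134985617-134986406) it was 75.4 (70.9 to 79.5) and 77.3 (74.0 to 80.3). Cldn7, whose protein also binds EpCAM, had 81.8 (75.6 to 87.0) and 87.3 (84.1 to 90.1) at chr11:69964712-69965745. In each of the 3 genes the Dll1- value was the higher one and the intervals overlapped. Ranked by −log10 p, the Cldn3 difference was 0.343 points, with Dll1+ the higher one.

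Cldn1, which is needed for the water barrier of the skin, had percentiles of 88.2 in Dll1+ (interval 82.6 to 92.7) and 84.0 in Dll1- (78.9 to 88.6) at chr16:26371326-26372040. Cldn8, a partner of Cldn4 in the kidney, had 87.8 (83.7 to 91.4) and 90.4 (87.8 to 92.7) at chr16:88562460-88563853, a region of 1394 bp that was the widest of the 78. Cldn12, a claudin whose protein lacks the usual tail for binding to scaffold proteins, had the highest promoter ranks, 93.8 (90.9 to 96.2) and 93.0 (90.5 to 95.03), at chr5:5514003-5515153. Intervals again overlapped for each of these genes.

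Cldn10 has alternative first exons that give channels of different ion preference. Its promoter signal lay at the downstream start only. The region over that start (chr14:118854482-118855170) had percentiles of 25.0 in Dll1+ (interval 6.34 to 47.9, from 27 reads) and 55.8 in Dll1- (41.4 to 66.9, from 72 reads). This difference of 30.8 points was the widest among the shared claudin promoters, and the intervals overlapped. At the upstream starts, at 118787908 and 118787918 on chromosome 14 and 66824 bp before the downstream one, neither list held a region, and the nearest region ended 12553 bp away.

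Cldn14 starts at 3 annotated places. Over the far start (chromosome 16, 94008837) lay a weak region of the Dll1- list only, with 25 reads and a percentile of 21.5 (interval 3.95 to 45.2). Scaled to the Dll1+ depth, this region would have had 13.0 reads and a −log10 p of 4.41, which is percentile 5.24 of the −log10 p in the Dll1+ list. The starts at 93929817 and 93929567 had no region in either list. Cldn14 was thus the only one of the 8 genes without a Dll1+ promoter region.

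The fold enrichment of a promoter depends on how open its surroundings are. At the Cldn3 promoter the local background exceeded the genome-wide one 11.2 times in Dll1+ and 9.28 times in Dll1-. In reads, this promoter was the strongest of all claudin regions, with 393 reads in Dll1+ (percentile 99.1 by reads) and 595 in Dll1- (percentile 99.0 by reads). These were 105 times and 82.7 times the genome-wide background. Over all 78 regions the local background ranged from 1 to 12.3 times the genome-wide one, and the highest multiples in both lists were at a Cldn3 region (chr5:134989626-134990126).

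Scaled to the genome-wide background in place of the local one, the reads at 4 promoters were higher in Dll1+. Cldn1 and Cldn12 were also higher there by percentile, whereas Cldn3 and Cldn8 turned direction. Cldn1 had 41.2 times the background in Dll1+ (interval 35.0 to 48.2) and 24.7 times in Dll1- (21.2 to 28.6). Cldn12 had 87.2 times (78.0 to 97.2) and 53.2 times (48.0 to 58.8), and the Dll1- interval of Cldn3, 76.1 to 89.6, ended below that of Dll1+. These 3 sets of intervals did not overlap, with Dll1+ higher, but they make no allowance for the shift of all shared regions given next. The share of all shared regions with intervals apart on this scale is not given here. Over all shared regions this ratio of Dll1+ to Dll1- had a median of 0.24 on the log2 scale, and over the shared claudin regions 0.11, with 21 of 52 above the median of all. Beside that median, the log2 ratio was 0.74 at Cldn1, 0.71 at Cldn12, 0.35 at Cldn3 and 0.25 at Cldn8, and it was -0.14 at Cldn7, -0.26 at Cldn4 and -0.47 at Cldn10. Cldn8 thus lay at the median of all shared regions, and which list was higher at Cldn3 and Cldn8 depended on the scaling. Set against the median of all shared regions on this scale, 11 of the 52 shared claudin regions lay on the other side than by percentile. Of these, 7 were higher in Dll1- by percentile and 4 in Dll1+, and 1, at Cldn8, differed by 20 points or more. The share of all shared regions that changed side in this way is not given here.

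**Figure D2:**
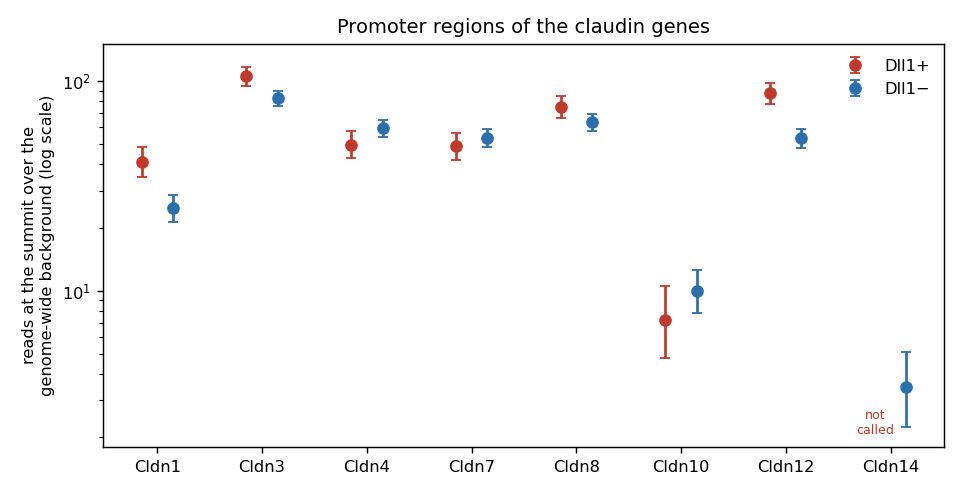
Reads at the summit of each claudin promoter region as multiples of the genome-wide background of its list (vertical axis, log scale), for Dll1+ (red) and Dll1- (blue), with exact Poisson 95% counting intervals. Cldn3 is highest in both lists, Cldn10 is low, and Cldn14 has no Dll1+ point.

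Cldn4 and Cldn3 are neighbours, transcribed away from each other from starts 39280 bp apart on chromosome 5. Between the starts lay 11 regions, the Cldn3 promoter among them, of which 9 were shared, 2 were in the Dll1- list only and 0 in the Dll1+ list only. Single regions of this interval differed between the populations in both directions.

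About 18816 bp upstream of Cldn3, the region at chr5:134967196-134967600 had 83 reads and a percentile of 27.4 in Dll1+ (interval 14.7 to 40.3), and 239 reads and a percentile of 57.3 in Dll1- (49.9 to 63.7). Its neighbour, after a gap of 3043 bp towards Cldn3, at chr5:134970644-134970963, was higher in Dll1+, with 130 reads and percentile 63.2 in Dll1+ (53.9 to 71.3) against 155 reads and percentile 41.3 in Dll1- (31.0 to 50.8). In both regions the counting intervals of the lists did not overlap. Ranked by −log10 p, the first was higher in Dll1- by 26.2 points and the second in Dll1+ by 12.3 points. The window of the first holds an E-box directly followed by an AP-1 match 4 bases before the summit, a further E-box and a FOX match. The window of the second holds a TEAD match and no AP-1 match or E-box.

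On the Cldn4 side, the region 4601 bp upstream (chr5:134951117-134951953) had 49 reads and percentile 11.7 in Dll1+ (interval 2.80 to 26.9) against 150 reads and percentile 37.7 in Dll1- (27.0 to 47.8). The region 12416 bp upstream (chr5:134959119-134959580), named after its values were seen, had percentile 56.0 (42.3 to 67.2) against 75.8 (70.5 to 80.4) and held 2 AP-1 matches. Both were higher in Dll1- with intervals apart. The remaining shared regions between the starts differed by at most 10.3 points, and the 2 Dll1- only regions, at chr5:134955544-134955795 and chr5:134978593-134978967, had percentiles of 36.0 and 29.7.

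**Figure D3:**
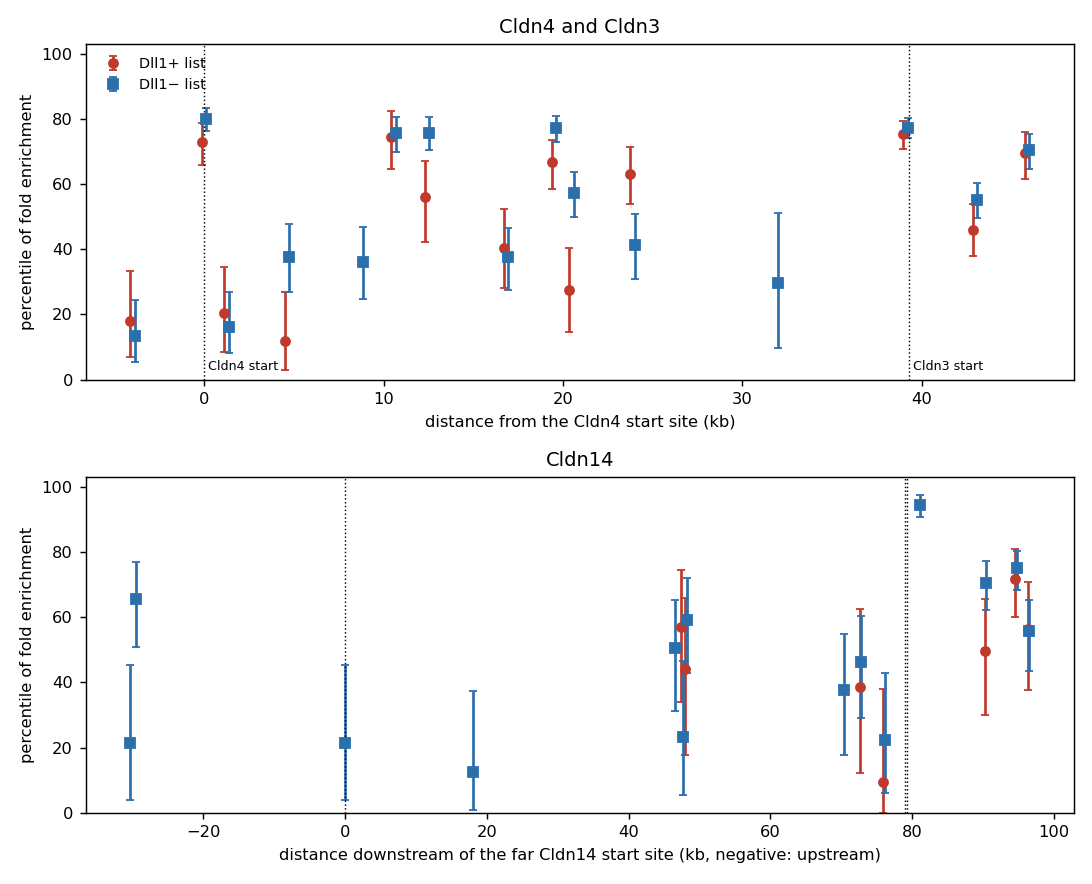
Percentile of fold enrichment of each region (vertical axis) against distance in kb from the Cldn4 start (top) and along Cldn14 from its far start (bottom), with counting intervals, Dll1+ red and Dll1- blue, and start sites dotted. Points of 1 colour alone are regions of 1 list, and the Dll1- only region just past the near Cldn14 starts is at 94.6.

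Cldn7 had 5 regions within 3126 bp of its start. Its 4 shared regions were each higher in Dll1-, by 0.560 to 9.38 percentile points, and none had intervals apart. The region at chr11:69966012-69966300, in an intron, was in the Dll1- list only, at percentile 4.66. The 2 regions upstream of the promoter both held an AP-1 match, and the summit window of the promoter held 4 E-box matches.

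Cldn1 had distant as well as near regions. Its strongest region in both lists lay 55355 bp downstream of the start (chr16:26316241-26316730), with 119 reads and percentile 89.9 in Dll1+ (interval 83.7 to 94.6) and 234 reads and percentile 94.4 in Dll1- (91.5 to 96.7). Farther out, at chr16:26250358-26250894, 137 reads gave percentile 62.0 in Dll1+ (52.5 to 70.1) and 305 reads gave 83.8 in Dll1- (80.0 to 87.4), with intervals apart. By −log10 p the Dll1- value there was higher by 10.4 points. In multiples of the genome-wide background the intervals overlapped, at 30.8 to 43.3 in Dll1+ and 37.7 to 47.4 in Dll1-. The largest rise of the Dll1+ rank over all shared claudin regions was at chr16:26306475-26306865, 65171 bp downstream, with percentile 63.7 in Dll1+ (43.1 to 78.8) against 21.5 in Dll1- (3.95 to 45.2). This difference of 42.2 points rested on 33 and 25 reads, and its intervals overlapped.

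Inside the Cldn1 gene, the intronic region at chr16:26369405-26369738 was in the Dll1- list only. It lay 2269 bp from the start, had 119 reads and a percentile of 67.0 (interval 58.0 to 74.8), and its window held an AP-1 match and an E-box. At the Dll1+ depth it would have had 61.8 reads and a −log10 p of 32.2, which is percentile 64.6 of the −log10 p in the Dll1+ list. Only 409 bp away, a shared region (chr16:26370148-26370492) was higher in Dll1+, at percentile 61.4 (48.3 to 71.8) against 41.9 (27.1 to 55.2).

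Cldn8 had 7 regions. The region 10017 bp upstream of its start (chr16:88572772-88573627) was its strongest in Dll1+, with 151 reads and percentile 88.9 (interval 83.3 to 93.3) against 116 reads and 80.4 (72.9 to 86.3) in Dll1-. The region 7284 bp upstream (chr16:88570188-88570746) had percentile 31.5 (14.6 to 49.5) against 59.7 (46.5 to 70.6), and the region 11334 bp downstream (chr16:88551597-88552101) had 69.2 (51.6 to 82.4) against 42.3 (20.2 to 60.5). The intervals overlapped in all 3, and the direction at the second depended on the scaling, since its reads were 12.6 times the genome-wide background in Dll1+ and 10.1 times in Dll1-, over a local background of 2.81 and 1.58 times. This log2 ratio of 0.31 was close to the median of 0.24 over all shared regions, and those of the other two were 1.33 and 1.03. The strongest Dll1+ only region of all 8 genes was also here (chr16:88556302-88557013), at percentile 43.0 from 29 reads.

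Cldn12 had 3 regions, each with its middle inside the gene. The coding exon region (chr5:5507768-5508208) had percentile 76.4 in Dll1+ (interval 64.9 to 85.4) and 71.2 in Dll1- (60.7 to 79.5). The intronic region (chr5:5510574-5510860) had 13.1 (3.94 to 25.1) and 39.8 (27.5 to 50.9), with intervals apart. Reads at that intronic region were nearly equal in multiples of the genome-wide background, 17.4 in Dll1+ and 16.5 in Dll1-, whereas the local background was 5.69 times and 3.803 times the genome-wide one.

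**Figure D4:**
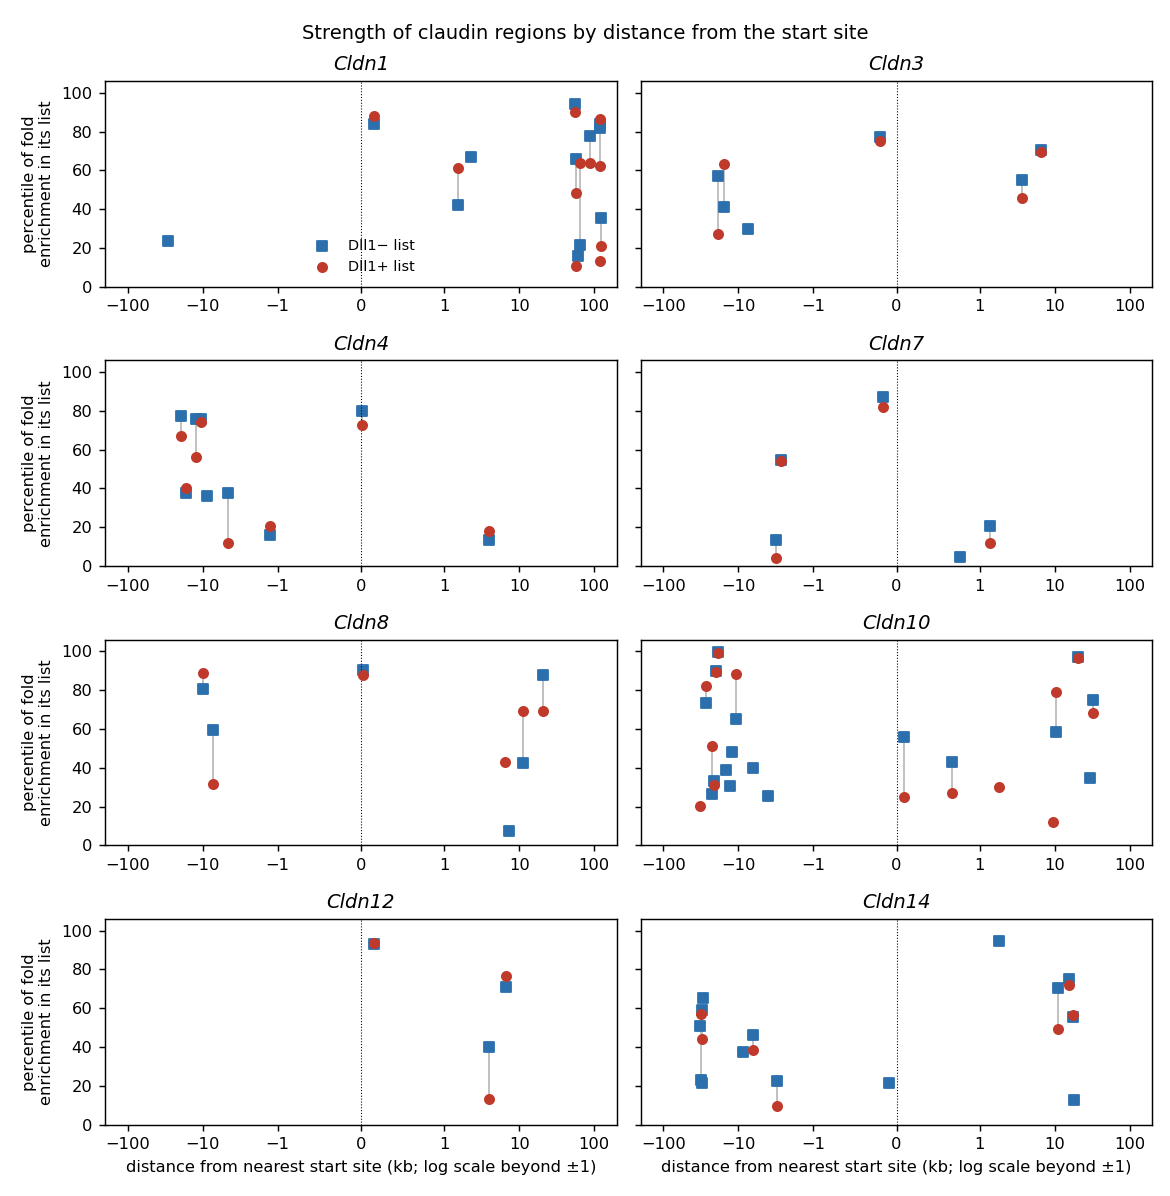
Percentile of fold enrichment (vertical axis) against distance from the nearest start site (kb, logarithmic beyond 1 kb, negative upstream) for the regions of each gene, Dll1+ in red circles and Dll1- in blue squares, with grey lines joining shared regions. Cldn10 reaches the highest percentiles, 99.1 and 99.5, away from its start sites.

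Cldn10 held the strongest claudin region, far from any of its promoters. This intronic region (chr14:118836077-118836555), 18416 bp upstream of the downstream start, had 350 reads and percentile 99.1 in Dll1+ (interval 98.0 to 99.7), and 553 reads and percentile 99.5 in Dll1- (99.0 to 99.8). A further region at the 3′ end of the gene (chr14:118874766-118875449), at the start of an antisense gene, had percentiles of 96.7 and 97.2. Both were thus near the top of either list, while the Cldn10 promoter itself lay at 25.0 and 55.8.

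Within the same gene, the intronic region at chr14:118843703-118844264 was higher in Dll1+, with 111 reads and percentile 88.5 (interval 81.8 to 93.7) against 82 reads and percentile 64.9 in Dll1- (53.3 to 74.2). It was 1 of the 2 shared claudin regions with intervals apart and Dll1+ higher, and the other was the region upstream of Cldn3 described above. Upstream of the gene, at chr14:118765315-118765728, percentile 51.1 (25.5 to 70.6) stood against 26.8 (7.64 to 48.1), from 26 and 31 reads, and the intervals overlapped. The 3 Dll1+ only and 6 Dll1- only regions of Cldn10 lay at or below percentiles 30.0 and 48.0.

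Cldn14, which seals against cations and is a deafness gene, showed the largest difference in presence between the lists. An intronic region 1772 bp downstream of a near start (chr16:93927605-93927984) was in the Dll1- list only, with 140 reads, a fold enrichment of 15.8 and percentile 94.6 (interval 90.7 to 97.4). By fold enrichment it ranked 3 among the 29318 Dll1- only regions of the genome. Of all Dll1- regions at percentile 90 or above, 0.176% lacked a Dll1+ row.

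The depth of the lists was set beside this region. Scaled to the Dll1+ depth, it would have had 72.7 reads over a background of 4.10 and a −log10 p of 63.5, which is percentile 80.8 of the −log10 p in the Dll1+ list. Its window held 1 AP-1 match, 26 bases before the summit, and no repeat-masked base. The share of the 4 Dll1- samples in these reads was not tested, because the list pools them.

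The next strongest Dll1- only regions of Cldn14 lay 29567 bp upstream of the far start (chr16:94038278-94038530, 54 reads, percentile 65.5) and in an intron (chr16:93962252-93962650, 44 reads, percentile 50.7). The other 4 had percentiles of 12.7 to 37.6. At least 7 Dll1- only regions with no Dll1+ only region was found at 163 of 17390 genes with a region (0.937%), and at 11 of the 246 genes with 14 regions (4.47%). The absence of a Dll1+ only region depended on the setting, since Cldn14 had 1 when shared regions had to overlap reciprocally by 50%, and 1 when only rows at or above the median of their list were used. Among the shared Cldn14 regions, 0 had intervals apart in either direction. The widest differences were 20.9 points with Dll1- higher, at chr16:93918293-93918652, with percentile 49.6 in Dll1+ (interval 30.0 to 65.6) and 70.5 in Dll1- (62.3 to 77.4) from 42 and 135 reads, and 34.0 points with Dll1+ higher, at chr16:93961159-93961492, with percentile 57.2 in Dll1+ (interval 34.0 to 74.4) and 23.2 in Dll1- (5.51 to 46.5) from 29 and 28 reads.

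Over the 52 shared claudin regions, the median difference in percentile (Dll1+ minus Dll1-) was -2.35, against -1.67 over all 79153 shared regions. The Dll1- rank was the higher one in 34 of 52 regions (65.4%), against 59.0% of all. A difference of 20 points or more was present in 7 regions with Dll1+ higher (13.5%, interval 6.68 to 25.3%), against 6.39% of all shared regions. It was present in 7 with Dll1- higher (13.5%), against 11.1% of all. Counting intervals did not overlap in 2 regions with Dll1+ higher (3.85%), against 2.73% of all, and in 5 with Dll1- higher (9.62%), against 7.68% of all. These 5 belonged to Cldn1, Cldn3, Cldn4 (2) and Cldn12. The intervals of these 4 shares held the value of all shared regions, except that the share with Dll1+ higher by 20 points or more had a lower bound of 6.68%, just above 6.39%.

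**Figure D5:**
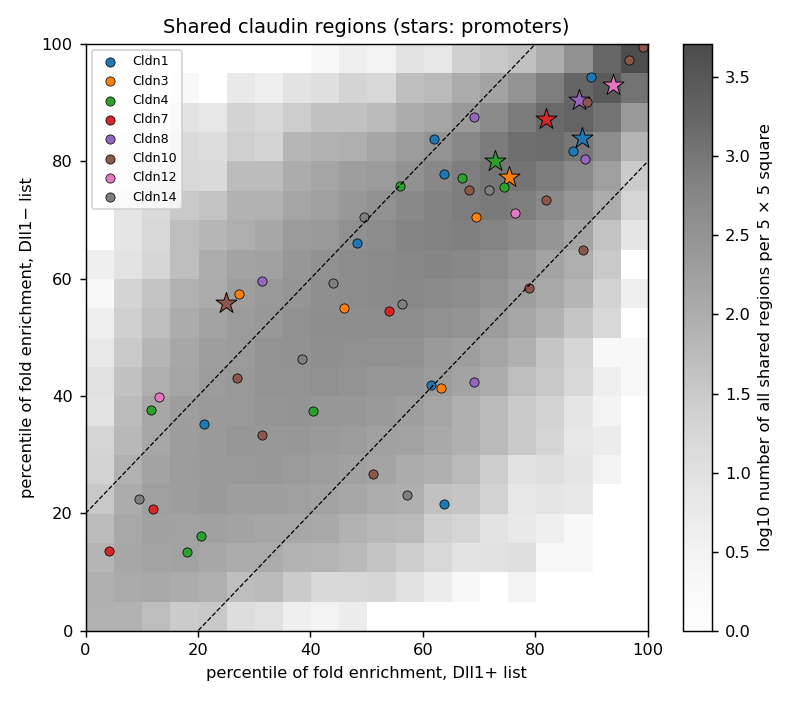
Percentile of fold enrichment in the Dll1+ list (horizontal axis) and the Dll1- list (vertical axis) for the 52 shared claudin regions, colored by gene with promoters as stars, over the density of all shared regions (grey), with dashed lines at 20 points of difference. The Cldn10 promoter is the star outside the lines, and 7 regions lie on or beyond each line.

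Sequence matches within 100 bp of the strongest summit were compared between the classes of region. AP-1 was matched in 5 of 20 Dll1- only claudin regions (25%, interval 11.2 to 46.9%), against 30.4% of all Dll1- only regions. It was matched in 0 of 6 Dll1+ only claudin regions (interval up to 39.0%), against 4.40% of all, and in 11 of 52 shared ones (21.2%), against 15.4%. Among shared regions that differed by 20 points or more, AP-1 was matched in 2 of 7 with Dll1- higher (34.8% of all such regions) and 0 of 7 with Dll1+ higher (3.87% of all). The claudin counts are too few to separate these classes, and each AP-1 interval held the value of all regions of its class. The E-box was matched in 19 of 78 claudin regions (24.4%, against 18.1% of all), the GC box in 12 (15.4%, against 13.3%), TEAD in 11 (14.1%, against 14.8%), FOX in 7 (8.97%, against 5.82%) and the Grainyhead-like sequence in 3 (3.85%, against 3.35%). The sequence bound by RBPJ (CGTGGGAA or TGTGGGAA), through which Notch acts on DNA, was matched in 1, a Dll1+ only region in a Cldn10 intron, against 2.07% of all. Of the 24 shares of claudin regions, for 8 sequences in the shared, Dll1+ only and Dll1- only classes, 2 had an interval that did not hold the value of all regions of that class. They were the E-box in 7 of 20 Dll1- only regions (35%, interval 18.1 to 56.7%, against 17.3%) and that single RBPJ match among 6 Dll1+ only regions (interval 3.01 to 56.4%, against 2.15%). A match is a description of the letters only.

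Other claudin genes had few promoter regions. Of 16 annotated others, 12 had no promoter region in either list, among them the endothelial claudin gene Cldn5, and Cldn23 had one in both lists, at percentiles 83.4 and 86.6. Of all protein-coding genes, 63.5% had a promoter region in either list. Of those genes, 0.826% had it in the Dll1+ list only and 4.75% in the Dll1- list only. In the Dll1+ list only, a promoter region was present at the channel-forming Cldn2 (percentile 51.6), at Cldn22 (23.4) and at Cldn11 (5.27). No other claudin gene had a promoter region in the Dll1- list only. Their 97 regions comprised 54 shared, 11 Dll1+ only and 32 Dll1- only regions, or 55.7% (interval 45.8 to 65.2%), 11.3% and 33.0%, against 66.4%, 9.01% and 24.6% of all regions. The interval of the shared part did not hold the value of all regions.

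Of 23 genes whose proteins work with claudins at the junction, including occludin (Ocln), the scaffold genes Tjp1 and Tjp3, cingulin (Cgn) and the adhesion gene F11r, 23 had a promoter region in both lists, against 94.4% of all protein-coding genes with a promoter region in either list. The median percentile was 76.3 in Dll1+ and 85.2 in Dll1-, and the median difference was -3.72, against -2.59 over the 7 shared promoters of the 8 claudin genes and -1.66 over all protein-coding genes with a promoter region in both lists. Their 392 regions were 66.3% shared, 8.93% Dll1+ only and 24.7% Dll1- only. The widest promoter difference was at Ildr1, a gene of tricellular junctions, with percentile 65.6 in Dll1+ and 82.6 in Dll1-.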

How the data were processed

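Accessible chromatin was measured by ATAC-seq in 7 samples of sorted mouse mammary tumor cells (3 Dll1+ and 4 Dll1-, grouped by the labelled cell population). With the ENCODE ATAC-seq pipeline the authors processed the samples of a group together, and they deposited 1 optimal peak list per group (132872 Dll1+ and 148923 Dll1- rows). The peak caller and its thresholds are not given in the sources used here, and the build in the submitters' processing notes is mm10 (GRCm38). As deposited, a row carries the authors' fold enrichment, a ratio of reads at the summit to the local background, and the authors' −log10 p-value. The authors' later per-sample test was not analysed here.

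Overlapping or touching rows of either list were joined to form regions, and each was assigned to the nearest start site of a protein-coding transcript (GENCODE M21). A region was ranked by its strongest row, as a percentile of fold enrichment among all rows of its list. Reads and backgrounds were recovered from the fold and −log10 p under a Poisson model (fold as reads plus 1 over background plus 1, tolerance 0.01 in −log10 p), which solved 100% of Dll1+ rows and all but 1 Dll1- row. Median reads at a summit were 43 and 61. Depth scaling divided Dll1- reads and backgrounds by 1.93, the ratio of the genome-wide backgrounds. Shares carry Wilson 95% intervals. Sequences came from RefSeq (GRCm38.p6). Tools were Python 3.11.15, pandas 2.3.3, SciPy 1.17.1, pysam 0.24.0 and samtools 1.23.1, and the scripts were tested on simulated data.

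Named regions were those over a claudin promoter, the strongest of each gene, regions of 1 list at or above the median of that list, and the 6 largest shared differences of 20 points or more in each direction. Other regions given by position were named after their values were seen. The 8 genes, the gene lists and the sequences searched were chosen with earlier results of these data known. A few genes of the partner and marker lists are not reported here and were left out of the list values. Alternatives were a reciprocal overlap, stricter, equal-number, asymmetric and depth-scaled thresholds, other ranks, start sites, windows and promoters, and a limit of 50 kb.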

Additional observations from a re-analysis of the deposited data

How the results depend on the processing

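No paired analysis was possible because each list pools the samples of its group, although the labels give 3 tumors in both groups, and for this reason single samples could not be left out. Keeping only rows at or above the median of their list gave 11 Dll1- only claudin regions in place of 20, with fewer rows used, and 6 Dll1+ only ones. Of the regions found in 1 list with all rows, 4 of 20 Dll1- only and 0 of 6 Dll1+ only held a row at or above the median. The counts at this setting thus include regions that were shared with all rows. The Dll1- only share of regions found in 1 list was 64.7% here, and 6 promoters were shared. Asking a region of 1 list to hold such a row left 0 Dll1+ only and 4 Dll1- only regions, so that 100% of them were Dll1- only (interval 51.0 to 100%, against 79.8% of all such regions), and 50% of these, or 2 of 4, held an AP-1 match (against 42.2%). Over the remaining settings, Dll1+ only regions ranged from 4 to 7 and Dll1- only regions from 17 to 22. The Dll1- only share of regions found in 1 list ranged from 75.0 to 82.6%, and shared promoters stayed at 7 with a wider promoter. Shares of all regions at the median setting and at these remaining settings are not given here. With a window of 50 bp, AP-1 was matched in 15% of Dll1- only claudin regions, against 23.6% of all Dll1- only regions. The median difference of shared claudin regions was -4.79 when ranked among regions (all shared regions -3.70), -4.17 by −log10 p (-1.90) and -1.04 with rows at or above the median (-1.15). For single genes and regions, 23 values moved and 193 did not, where a count had to stay within 1.5 times and a difference within 0.5 of the width of the wider counting interval. No difference of 20 points or more changed sign under the ranks tried, but of the 52 shared regions 7 smaller ones did by −log10 p (at most 4.35 points in size by fold enrichment). Among these were the Cldn3 promoter (0.343) and a Cldn14 region (-10.7). Ranked among regions, 2 changed sign. By −log10 p, 5 regions were higher in Dll1+ and 9 in Dll1- by 20 points or more, in place of 7 and 7, and ranked among regions 7 and 10. The shares of all shared regions under these other ranks are not given here. The lower bound of 6.68% for Dll1+ higher belongs to the count of 7 by fold enrichment. By −log10 p the difference of the Cldn1 region at chr16:26250358-26250894 was -10.4 points, and that of the Cldn3 region upstream with Dll1+ higher was 12.3 points. Scaling the Dll1- list to the Dll1+ depth kept 146651 of 148923 rows and so could change little, and the part of depth in the weak Dll1- only regions, at scaled −log10 p down to percentile 0.888 of the Dll1+ list, was not tested by it. Differences resting on few reads have wide counting intervals.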
